A study of Mus musculus with 8 samples.

Results

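The stretch of mouse chromosome 11 described here, chr11:11179629-11399999 in mm9, covers the gene *Zpbp* and the nearer part of 4930415F15Rik. Every DpnII restriction fragment whose midpoint lay in this stretch was taken, with no use of its reads, which gave 608 of the 295446 fragments listed for the chromosome. The series followed contacts of the *Ikzf1* promoter region by 4C-seq in 6 libraries and mapped the histone mark H3K27ac in 2 libraries, 1 library per condition throughout. DN3 cells, an early stage of T cell development, were sorted from thymus of WT c57/Bl6 mice a few weeks old. J1 mouse embryonic stem (ES) cells were moved from feeder cells onto gelatin before use, and their nuclei were opened under milder conditions than the other cells. P5424 is a mouse T cell line that resembles T cell precursors. It was used as wt and as ΔIkE120, in which the enhancer IkE120 upstream of *Ikzf1* was deleted on both alleles, and which is 1 clone. Each P5424 genotype was assayed by 4C unstimulated and after 6 h with 20 µg/ml PMA plus 0.5 µg/ml ionomycin. Whether the cells used for H3K27ac were stimulated is not stated.

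In 4C, crosslinked chromatin is cut, ligated and amplified from a chosen fragment, the bait, so that reads on another fragment count ligations between that fragment and the bait. Ligation becomes rarer with distance along the chromosome, and CTCF with cohesin can hold the boundaries within which contacts concentrate. *Ikzf1* encodes Ikaros, a zinc finger factor of lymphocyte development. *Zpbp* encodes a zona pellucida binding protein of the sperm acrosome, and 4930415F15Rik, now named *Spata48*, is a spermatogenesis associated gene.

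The bait lay at position 11583520 (mm9), and the stretch ran from 184 to 404 kb upstream of it. *Zpbp* (ENSMUSG00000020193.3, chr11:11179629-11362411, minus strand) and 4930415F15Rik (ENSMUSG00000020191.4, chr11:11362097-11415195, plus strand) start head to head and overlap by 315 bp. The *Zpbp* start was 221 kb from the bait and 37.6 kb from the end of the stretch that faces the bait, here called the inner edge. Of the 608 fragments, 78 lay between the *Zpbp* start and the inner edge, all within 4930415F15Rik, and 530 lay in *Zpbp*. The annotation also places the pseudogenes Gm12598 and Gm12599 and the small nucleolar RNA SNORA24 within *Zpbp*.

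Reads more than 15 kb from the bait on chromosome 11 were used as the total of each library. They numbered 1525273 in DN3, 3095991 in ES, 1742231 in unstimulated wt P5424 and 1526128 in stimulated wt P5424. The ΔIkE120 libraries held 3342473 unstimulated and 2178345 stimulated. Because depth differed, libraries are compared by shares of these totals. Intervals are exact Clopper-Pearson 95% intervals and cover counting error only, since PCR reads without molecular identifiers are not independent molecules. With 1 library per condition there is no replicate spread, and no difference was tested.

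The genotype labels were checked on 4 fragments that touch the IkE120 hypersensitive site. The fragment at chr11:11464326-11464553 had 1922 reads in wt unstimulated and 366 in wt stimulated P5424, and 0 in both ΔIkE120 libraries. The next fragment toward the bait, chr11:11464550-11465214, had 4132 and 3720 reads in the wt libraries and again 0 in both ΔIkE120 libraries. The other fragments, chr11:11464041-11464305 and chr11:11464302-11464329, had 6945 and 7331 reads in ΔIkE120 unstimulated, and 2798 and 5225 in ΔIkE120 stimulated. Of the 4 fragments, 2 were without reads in the ΔIkE120 libraries and 2 kept them. The fragments chr11:11464041-11464305, which kept reads, and chr11:11464550-11465214, which did not, lay only in part within the site. The other fragment that kept reads, chr11:11464302-11464329, lay wholly within the site as listed. The ends of the deletion are not in the labels, so whether this fragment should have lost its reads is not known. The study checked the deletion by PCR and by sequencing its junctions, and the libraries are called ΔIkE120 here as labelled. For H3K27ac, peaks within 1 kb of the start were present in both lists at 5 of 5 T cell precursor genes (*Cd3e*, *Lck*, *Ptcra*, *Bcl11b* and *Notch1*). Of the B cell genes with a listed start, *Ebf1* had a peak in both lists and *Cd79a* had none. Of the ES cell genes, *Pou5f1* had a peak in both lists and *Nanog* had none. *Spi1* and *Csf1r* had no listed start.

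The share of reads in the stretch ran from 4.93% to 6.72% over the 6 libraries. DN3 placed 89718 reads there, 5.88% of its total (5.84 to 5.92). ES placed 193149, 6.24% (6.21 to 6.27). Unstimulated wt P5424 placed 117078, 6.72% (6.68 to 6.76), and stimulated wt P5424 placed 75172, 4.93% (4.89 to 4.96). Unstimulated ΔIkE120 placed 219260, 6.56% (6.53 to 6.59), and stimulated ΔIkE120 placed 137290, 6.30% (6.27 to 6.33). Of these totals, stimulated wt P5424 had the lowest share and unstimulated wt P5424 the highest. With reads within 1 Mb of the bait as total the lowest was DN3, at 9.40% (9.34 to 9.46), and its interval overlapped that of stimulated wt P5424, at 9.50% (9.44 to 9.56). The number of fragments with at least 1 read was highest in ES. It was 341 of 608 in ES (56.1%), against 230 in DN3, 241 and 186 in unstimulated and stimulated wt P5424, and 238 and 242 in unstimulated and stimulated ΔIkE120. ΔIkE120 unstimulated was deeper than ES and covered 39.1%. Whether coverage depends on depth was not tested. The higher coverage in ES was not particular to the stretch. Over all of chromosome 11, 10310 fragments were read in ES and 5548 to 7629 in the 5 others. The stretch held 3.31% of the read fragments of ES, 3.01% of those of DN3 and 3.28% to 3.66% of those of the P5424 libraries.

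The reads were unevenly placed along the stretch, and they lay nearest the inner edge in DN3. Counted from the inner edge, 50% of the reads of the stretch were reached at 22.9 kb in DN3, 29.5 kb in stimulated wt P5424 and 30.6 kb in unstimulated ΔIkE120. They were reached at 34.6 kb in stimulated ΔIkE120, 37.5 kb in unstimulated wt P5424 and 45.9 kb in ES. The position at which 90% was reached spread further, at 88.4 kb in DN3, 101 kb in stimulated wt P5424, 104 kb in unstimulated ΔIkE120, 114 kb in stimulated ΔIkE120, 133 kb in unstimulated wt P5424 and 180 kb in ES. DN3 reads thus lay mostly in 4930415F15Rik and near the *Zpbp* start, and ES reads ran through most of *Zpbp*.

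In steps of 20 kb from the inner edge, the decline in DN3 was steep after the interval chr11:11340000-11359999, where reads per fragment fell 3.76 times. The largest such fall was steeper in unstimulated wt P5424, at 10.7 times, from chr11:11360000-11379999 (41121 reads) to chr11:11340000-11359999 (6108). It was 3.2 times in ES, 3.63 in stimulated wt P5424, and 4.53 and 4.21 in unstimulated and stimulated ΔIkE120, at other intervals. DN3 had 36054, 26414 and 14356 reads in the 3 intervals nearest the bait and 3447 in the next. ES had 50027, 38915, 19341 and 12442 in the same intervals. Beyond them, from chr11:11319999 outward, ES kept 5337 to 18307 reads per interval, whereas DN3 had 255 to 2854. The P5424 libraries were uneven over the same 7 intervals, with 617 to 9394 reads in unstimulated wt, 491 to 5626 in stimulated wt, 830 to 9459 in unstimulated ΔIkE120 and 1412 to 7738 in stimulated ΔIkE120. In the interval chr11:11220000-11239999 the share of reads was 0.0167% in DN3 and 0.215% in ES. It was 0.0354% and 0.0473% in unstimulated and stimulated wt P5424, and 0.0252% and 0.0743% in unstimulated and stimulated ΔIkE120. All 5 T lineage libraries were below ES there, but not in every interval. In chr11:11260000-11279999 unstimulated wt P5424 had 0.539% and ES 0.261%. In chr11:11320000-11339999 unstimulated wt P5424 had 0.752%, stimulated ΔIkE120 0.421% and ES 0.402%. The longest run of fragments without reads was 41 in DN3 (12.5 kb) and 31 in ES (6.35 kb). It was 34 in unstimulated wt P5424, reached by 2 runs, the longer of 9.72 kb, and 37 in stimulated wt P5424 (12.9 kb). It was 37 in unstimulated ΔIkE120 (11.035 kb) and 34 in stimulated ΔIkE120 (7.30 kb), where a run of 33 fragments was longer, at 10.7 kb. DN3 had the longest run by fragments and stimulated wt P5424 by length. The ES run, chr11:11277881-11284229, was without reads in every library. The DN3 run, chr11:11186366-11198905, also held fragments without reads in every library. The lengths of these runs are therefore not given as a loss of contact in 1 library.

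By gene, the fragments of 4930415F15Rik were read nearly completely and those of *Zpbp* in part. Between the *Zpbp* start and the inner edge, 75 of 78 fragments had reads in DN3, 76 in ES, 70 and 68 in unstimulated and stimulated wt P5424, and 73 and 74 in unstimulated and stimulated ΔIkE120. In *Zpbp*, 155 of 530 had reads in DN3, 265 in ES, 171 and 118 in unstimulated and stimulated wt P5424, and 165 and 168 in unstimulated and stimulated ΔIkE120. ES covered 50% of the *Zpbp* fragments and the T lineage libraries 22.3% to 32.3%. Of the 530 *Zpbp* fragments, 218 had reads in no library, against 1 of the 78 on the bait side. These fragments were kept in all counts. Whether reads can be mapped to them was not tested, so the difference between the genes in fragments read is not given as contact alone. In the equal length beyond the stretch ES covered 50.8% and the 5 others 14.6% to 24.3%, so its excess there was no smaller. Of the reads of the stretch, 65.4% lay on the bait side of the *Zpbp* start in DN3 (65.1 to 65.7) and 41.5% in ES (41.3 to 41.8). The value was 50.01% in unstimulated wt P5424 (49.7 to 50.3) and 56.4% in stimulated wt P5424 (56.0 to 56.7). It was 60.02% in unstimulated ΔIkE120 (59.8 to 60.2) and 55.5% in stimulated ΔIkE120 (55.3 to 55.8). ES had most of these reads inside *Zpbp*, the interval of unstimulated wt P5424 spanned 50%, and the 4 others had most of them on the bait side. The share for unstimulated wt P5424 rested on 1 fragment, and without the fragment with the most reads it was 55.2%. Counted as fragments with reads, the bait side held 22.3% to 36.6%, beside the 12.8% of all fragments of the stretch that lie there, with 32.6% in DN3 and the highest value in stimulated wt P5424.

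Reads per fragment fell across the *Zpbp* start in all 6 libraries, and they also fell at the same distance on the other side of the bait. Reads per fragment in the 20 kb on the bait side of the start were 574 in DN3, against 298 in the 20 kb on the gene side, a ratio of 1.93. In ES they were 728 and 452, a ratio of 1.61. For wt P5424 this ratio was 2.47 unstimulated and 1.79 stimulated, and for ΔIkE120 it was 2.57 unstimulated and 1.82 stimulated. At the mirrored position, 221 kb downstream of the bait, the ratio was 1.97 in DN3, 1.62 in ES, 2.59 and 1.67 in unstimulated and stimulated wt P5424, and 2.28 and 2.23 in unstimulated and stimulated ΔIkE120. With all fragments kept, the start ratio was above the mirrored one in stimulated wt P5424 (1.07 times) and unstimulated ΔIkE120 (1.12 times). It was 0.814 to 0.995 times the mirrored one in the 4 others. The ratio depended on the length of the flanks, which was varied after seeing the data. With flanks of 10 kb it was 0.976 in DN3, 0.995 in ES, 0.61 in stimulated wt P5424 and 0.855 in stimulated ΔIkE120, but 1.32 in unstimulated wt P5424 and 1.05 in unstimulated ΔIkE120. With flanks of 40 kb it was 2.91 to 4.02. Without the fragment with the most reads of each 20-kb flank, the ratio in unstimulated wt P5424 was 5.03. In that library 1 fragment held 25.3% of the reads on the bait side of the start and 63.2% on the gene side. In the mirrored flanks 1 fragment held 40.1% and 44.6%. The mirrored ratio was not taken without such fragments, so which ratio was then larger is not stated. Coverage of fragments also fell across the start. In the 20 kb on the bait side 84.8% to 100% of 46 fragments had reads, and on the gene side 45.8% to 64.4% of 59. The mirrored flanks had 40% to 82.2% and 31.7% to 61.7%. Any fragments read in no library were kept in these percentages and in reads per fragment. Whether reads can be mapped to them was not tested.

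The neighbouring stretches showed where ES and the T lineage libraries parted. In the 60 kb between the inner edge and the bait, chr11:11400000-11459999, the share of reads was 12.6% in DN3 and 5.15% in ES. It was 12.6% and 10.6% in unstimulated and stimulated wt P5424, and 12.3% and 12.04% in unstimulated and stimulated ΔIkE120. DN3 was thus 1.29 above ES there on the log2 scale, against -0.085 in the *Zpbp* stretch. In the equal length beyond it, chr11:10959258-11179628, DN3 had 0.41%, ES 3.11%, wt P5424 1.601% and 1.45%, and ΔIkE120 1.12% and 1.51%, unstimulated and stimulated in turn. The log2 ratio of DN3 over ES there was -2.92. The stretch over *Zpbp* therefore lay where the sign of the DN3 to ES difference turned. In the mirrored stretch, chr11:11767041-11987411, ES had 11.3% and the 5 other libraries 3.37% to 4.66%. In ES the mirrored stretch exceeded the *Zpbp* stretch, and in the 5 other libraries the *Zpbp* stretch was 1.44 to 1.61 times the mirrored one.

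Whether contacts differ between a T lineage cell and ES cells was addressed by DN3 over ES. Over the whole stretch the log2 ratio was -0.085 (-0.096 to -0.073), a small difference that joined opposite ones along the stretch. On the bait side DN3 had 3.85% and ES 2.59% of their reads, a log2 ratio of 0.57, and in *Zpbp* as a whole 2.04% and 3.65%, a log2 ratio of -0.84. The sign did not turn at the *Zpbp* start but deeper in the gene, since the log2 ratio was 0.42 in the 20 kb on the gene side of the start, 0.59 in chr11:11340000-11359999 and -0.83 in chr11:11320000-11339999. Of the 11 intervals of 20 kb, 7 were lower in DN3 by 2-fold or more and 0 were higher, where an interval was counted if it had at least 50 reads in either library. Over the 97 such intervals within 1 Mb of the bait, 74.2% were lower and 7.22% higher, so the 63.6% lower within the stretch was not above its surroundings. The 7 were the outermost, from chr11:11180000 to chr11:11319999, with log2 ratios from -1.23 to -3.69. The smallest, at chr11:11260000-11279999, was -0.84 after quantile normalization across the 6 libraries and then under 2-fold. The steepest was chr11:11220000-11239999, with 255 reads in DN3 and 6665 in ES. The 3 intervals nearest the bait were at 0.46 to 0.59. After quantile normalization they were at 0.21, 0.099 and 0.47, counted from the inner edge. Leaving out the fragment with the most reads of each interval in either library, a choice made after seeing the data, gave 8 lower and 0 higher, the same 7 and chr11:11320000-11339999 (-1.07), beside 78.4% lower and 6.19% higher over all 97. The log2 ratio over the stretch was -0.18 to -0.083 under the alternatives tried.

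Whether the P5424 line resembled sorted DN3 cells was read from unstimulated wt P5424 over DN3. The log2 ratio was 0.19 (0.18 to 0.20) over the stretch, -0.19 on the bait side and 0.72 in *Zpbp*. Of 11 intervals, 6 were higher by 2-fold or more in P5424 and 1 was lower. Within 1 Mb, 40% of 90 intervals were higher and 20% lower. The 6 were the outermost 5, from chr11:11180000 to chr11:11279999, and chr11:11320000-11339999, with log2 ratios of 1.08 to 2.72. The largest was at chr11:11200000-11219999, from 4107 reads in P5424 and 547 in DN3. The lower interval was chr11:11340000-11359999, with 6108 and 14356 reads and a log2 ratio of -1.42, which after quantile normalization was -0.93, no longer past 2-fold. Single fragments carried part of this. In unstimulated wt P5424, 1 fragment held 79.2% of the reads of the outermost interval and 48.5% of those of chr11:11260000-11279999. Without the top fragments of each interval, 3 were higher and 1 lower, beside 39.7% higher and 12.8% lower among 78. Those still higher were chr11:11200000-11219999 (1.97), chr11:11260000-11279999 (1.98) and chr11:11320000-11339999 (1.60), and the lower one was again chr11:11340000-11359999 (-1.21). The outermost interval was then at -0.055, and chr11:11220000-11239999 and chr11:11240000-11259999 were at 0.90 and 0.37. The log2 ratio over the stretch was 0.094 without the top fragment of either library, and up to 0.28 by fragments read.

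The effect of deleting IkE120 was read from the libraries labelled ΔIkE120 over those labelled wt. Without stimulation the log2 ratio over the stretch was -0.035 (-0.045 to -0.025), and it reached -0.10 with reads within 1 Mb of the bait as total. Of 11 intervals, 1 was higher and 4 were lower by 2-fold or more, beside 28.7% higher and 23.4% lower among 94 within 1 Mb. The higher interval was chr11:11340000-11359999, with 28168 reads in ΔIkE120 and 6108 in wt and a log2 ratio of 1.27, which after quantile normalization was 0.85 and no longer past 2-fold. The largest decrease was at chr11:11240000-11259999, with 830 and 2774 reads and a log2 ratio of -2.68. The other lower intervals were chr11:11180000-11199999, chr11:11260000-11279999 and chr11:11320000-11339999, at -1.45, -1.93 and -1.06, the last of them at -0.96 after quantile normalization. After stimulation the log2 ratio over the stretch was 0.36 (0.34 to 0.37), with 3 intervals higher and 0 lower, beside 32% higher and 14.4% lower among 97. Those 3 were chr11:11180000-11199999, chr11:11200000-11219999 and chr11:11260000-11279999, with log2 ratios of 1.01, 1.36 and 1.54, the first of them at 0.53 after quantile normalization. Without the top fragments, 1 was higher and 2 lower unstimulated, beside 35.2% higher and 13.6% lower among 88. The higher one was again chr11:11340000-11359999 (1.46), and the lower ones were chr11:11240000-11259999 (-1.69) and chr11:11260000-11279999 (-1.49), while chr11:11180000-11199999 turned to 0.36 and chr11:11320000-11339999 was at -0.78. Stimulated, 2 were then higher and 1 lower, beside 42.4% higher and 8.70% lower among 92. Those higher were chr11:11200000-11219999 (1.07) and chr11:11260000-11279999 (1.85), and chr11:11180000-11199999 was at 0.91. The lower one was chr11:11240000-11259999, which went from -0.54 to -3.74, with 84 reads left in ΔIkE120 and 787 in wt. The stimulated ratio over the stretch was 0.18 with reads within 1 Mb as total. It had the opposite sign, -0.036, when fragments with reads replaced reads, and the unstimulated one was then -0.087, so both were negative.

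The response to PMA and ionomycin was read from stimulated over unstimulated cells. In wt the log2 ratio over the stretch was -0.45 (-0.46 to -0.43), from 6.72% to 4.93% of reads. It was -0.21 with reads within 1 Mb of the bait as total and -0.13 by fragments read. Of 11 intervals 1 was higher and 3 were lower by 2-fold or more, beside 28% higher and 24.7% lower among 93 within 1 Mb. The higher interval was chr11:11300000-11319999, at 1.21, and at 0.64 after quantile normalization, under which 0 were higher and 4 lower. The lower ones were chr11:11180000-11199999, chr11:11200000-11219999 and chr11:11260000-11279999, at -2.69, -1.62 and -3.01. The mirrored stretch had a similar log2 ratio, -0.47, with 4.66% unstimulated and 3.37% stimulated. In ΔIkE120 the log2 ratio was -0.058 (-0.067 to -0.048). Its sign turned with reads within 1 Mb as total, at 0.075, and without the top fragment of either library, at 0.016, so no direction is given. Of 11 intervals 2 were higher and 0 lower, beside 24.7% higher and 16.5% lower among 97. Those 2 were chr11:11220000-11239999, with 1619 stimulated and 843 unstimulated reads, and chr11:11240000-11259999, with 1477 and 830. In the stimulated ΔIkE120 library, 1 fragment held 94.3% of the reads of the latter. Without the top fragments of each interval, wt had 0 higher and 2 lower, beside 24.7% higher and 25.9% lower among 85. The 2 were chr11:11200000-11219999 (-1.63) and chr11:11260000-11279999 (-2.78), while chr11:11180000-11199999 was at -0.85 and chr11:11300000-11319999 at 0.67. ΔIkE120 then had 0 higher and 1 lower, beside 23.7% higher and 17.2% lower among 93. The lower one was chr11:11240000-11259999, which turned from 1.45 to -2.09, with 84 stimulated and 548 unstimulated reads left, and chr11:11220000-11239999 was at 0.85.

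Which *Zpbp* fragments were read varied from library to library. Overlaps between libraries were not counted outside the stretch, so this is not given as particular to *Zpbp*. Of all 608 fragments, 103 had reads in all 6 libraries and 219 in none. Of the 103, 61 lay on the bait side of the *Zpbp* start and 42 in *Zpbp*, and of the 219, 218 lay in *Zpbp*. In *Zpbp*, the unstimulated and stimulated wt P5424 libraries shared 80 fragments, 46.8% of the 171 read in the former and 67.8% of the 118 read in the latter. On the bait side they shared 65, which was 92.9% of 70 and 95.6% of 68. DN3 and ES shared 137 fragments in *Zpbp*, 88.4% of the DN3 fragments and 51.7% of the ES fragments. ES held 26 fragments read in no other library, all in *Zpbp*, and the 5 others held 1 to 7 each. This count was not taken over all of chromosome 11, where ES also had the most fragments read, 10310 against 5548 to 7629. Nothing particular to the stretch is read from it. The 10 fragments with the most reads in *Zpbp* carried 24.1% of the *Zpbp* reads in ES and 35.8% to 61.9% in the 5 others.

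Fragments read in all 6 libraries were longer than those read in none, with median lengths of 402 and 154 bp. Their median GC was 38.3% and 39.8%. The second enzyme, Csp6I, cuts at GTAC, and 266 of the 608 fragments (43.8%) held such a site, 46.6% of those read in all 6 and 39.7% of those read in none. The 2 groups also differed in place, since 61 of the 103 read in all 6 lay on the bait side and 218 of the 219 read in none lay in *Zpbp*. Length, GC and the site cannot be told apart from place in this comparison. In *Zpbp*, fragments with the site had more reads per fragment than those without, 98.6 against 27.6 in DN3 and 339 against 116 in ES. The same held in the 4 P5424 libraries, at 173 against 62.1 and 108 against 26.2 in unstimulated and stimulated wt, and 259.9 against 92.4 and 179.8 against 65.4 in unstimulated and stimulated ΔIkE120. Fragments that touch an exon of *Zpbp* numbered 21, of which 12 had reads in DN3 and 17 in ES. In unstimulated and stimulated wt P5424 9 and 8 had reads, and in unstimulated and stimulated ΔIkE120 11 and 11. The 21 include chr11:11362383-11362596, which holds the *Zpbp* start and is counted above on the bait side. Of the 510 *Zpbp* fragments in introns alone, 144 had reads in DN3 and 249 in ES. The P5424 libraries had 163 and 111 in wt, and 155 and 158 in ΔIkE120, unstimulated and stimulated in turn. All 10 fragments that touch an exon of 4930415F15Rik had reads in all 6 libraries. The 2 fragments over Gm12598 had 0 reads in DN3, which allows up to 0.000197% of its reads if 3 reads are taken as the limit of a count of 0, and 455 in ES. They had 342 and 245 in unstimulated and stimulated wt P5424, and 147 and 474 in unstimulated and stimulated ΔIkE120. Each of the 2 fragments was read in 3 of the 6 libraries. The 3 fragments over Gm12599 had 33 reads in DN3, 513 in ES, 261 and 278 in unstimulated and stimulated wt P5424, and 663 and 3 in unstimulated and stimulated ΔIkE120. The fragment over SNORA24 had 130 in DN3, 570 in ES, 195 and 52 in wt P5424 and 156 and 0 in ΔIkE120, in the same order.

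The 6 fragments with the highest mean share of the reads of the stretch held 2.44% to 3.87% each, averaged over the libraries with equal weight. The highest, at 3.87%, was chr11:11359809-11361059, of 1251 bp in an intron of *Zpbp* 223 kb from the bait. It had 560 reads in DN3, 4922 in ES, 11076 and 2323 in unstimulated and stimulated wt P5424, and 11841 and 2859 in unstimulated and stimulated ΔIkE120. It was the fragment with the most reads in unstimulated wt P5424, at 9.46% of the stretch, and it was low in DN3, at 0.624%. The next, at 3.798%, held the *Zpbp* start, and it is the fragment chr11:11362383-11362596 of 214 bp. It had 3942 reads in DN3, 3535 in ES, 8562 and 848 in unstimulated and stimulated wt P5424, and 12156 and 3538 in unstimulated and stimulated ΔIkE120. In both genotypes the unstimulated library had more reads on it than the stimulated one, as a share of the stretch 7.31% against 1.13% in wt and 5.54% against 2.58% in ΔIkE120. The other 4 of the 6 lay in 4930415F15Rik. The fragment chr11:11399306-11400419, at 3.44%, had the most reads of the stretch in stimulated wt P5424 (4458) and in stimulated ΔIkE120 (6917). Then came chr11:11376889-11377359, which touches an exon, at 2.62%, and the intron fragments chr11:11384245-11384950 at 2.501% and chr11:11377356-11377797 at 2.44%. Outside the 6, the intron fragment chr11:11391284-11392610 had the most reads in DN3 (4440), and chr11:11390438-11390786, also in an intron, had the most in ES (5071). The fragment with the most reads in unstimulated ΔIkE120 was the 14-bp chr11:11381675-11381688 in an intron of 4930415F15Rik, with 12878 reads. It had 1558 in DN3, 1256 in ES, 372 in stimulated ΔIkE120 and 0 in both wt P5424 libraries, although its neighbours were read in them. The 3 sequences follow on the plus strand of mm9, the longest by its first 100 bases (chr11:11359809-11359908), because 4C reads begin at fragment ends. Capitals mark the DpnII site GATC and the Csp6I site GTAC.
Intron fragment, outer end: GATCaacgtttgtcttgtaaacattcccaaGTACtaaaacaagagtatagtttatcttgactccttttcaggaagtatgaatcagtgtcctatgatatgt
Zpbp start fragment: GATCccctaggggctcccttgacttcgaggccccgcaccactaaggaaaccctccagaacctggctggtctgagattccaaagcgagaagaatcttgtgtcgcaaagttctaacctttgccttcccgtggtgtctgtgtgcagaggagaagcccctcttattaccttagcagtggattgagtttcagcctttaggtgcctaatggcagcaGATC
Short 4930415F15Rik fragment: GATCtatgctGATC

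Of the H3K27ac peaks over the 2 genes, those at the *Zpbp* start had the highest fold enrichment in both lists. In GRCm38, the H3K27ac list of wt P5424 had 1 peak over *Zpbp*, chr11:11461653-11462741, with a fold enrichment of 5.57 and a -log10 q of 24.2. The list of ΔIkE120 had 1 peak, chr11:11461636-11462796, at 5.61 and 21.9. These covered 1089 and 1161 bp, 0.59% and 0.629% of the gene. The gene span used starts *Zpbp* at 11464223, so the peaks lay 1482 bp (wt) and 1427 bp (ΔIkE120) inside it. The start listed with the RefSeq promoter, 11462419, lay under both peaks. The same peaks also lay within 2.5 kb of the start of 4930415F15Rik. In 4930415F15Rik, 4 peaks covered 1788 bp in wt and 4 covered 2033 bp in ΔIkE120, each with a -log10 q of 1.66 to 5.89 and a fold enrichment of 2.51 to 3.26. Not all of these lay in the stretch. By distance from the *Zpbp* start fragment, taken within each build, 2 of the 4 in wt and 3 of the 4 in ΔIkE120 lay farther toward the bait than the inner edge, which was 37.6 kb away. When peaks with a -log10 q under the list median were dropped, each list kept its peak at the *Zpbp* start and 1 peak in 4930415F15Rik. The latter was at chr11:11511967-11512757 in wt and at chr11:11506491-11507053 in ΔIkE120, both beyond the inner edge. The RefSeq promoter of *Zpbp* (chr11:11462370-11462669, GRCm38.p6, minus strand) lay wholly inside the peak in both lists. The reverse complement of the *Zpbp* start fragment matched bases 77 to 290 of this promoter exactly, so this fragment lay under the peaks of both lists. The promoter is shown 5′ to 3′ with the DpnII sites in capitals.
Zpbp promoter: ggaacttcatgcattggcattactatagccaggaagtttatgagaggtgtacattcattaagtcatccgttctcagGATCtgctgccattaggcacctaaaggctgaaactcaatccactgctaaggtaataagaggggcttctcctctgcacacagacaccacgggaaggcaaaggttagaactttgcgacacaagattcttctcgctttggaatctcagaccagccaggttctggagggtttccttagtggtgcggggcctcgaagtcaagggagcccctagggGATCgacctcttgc

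Letters that resemble the core of a CTCF site, CCNNNAGNNGGC read on both strands, were searched in mm9. They occurred 13 times in the stretch, in 6 of its 11 intervals of 20 kb (54.5%), against 71 of 97 intervals (73.2%) within 1 Mb of the bait. Within 20 kb of the *Zpbp* start there were 3 matches, all on the plus strand and all in the DpnII fragment chr11:11361510-11362386 next to the start fragment. That fragment had 940 reads in DN3, 1059 in ES, 560 and 361 in unstimulated and stimulated wt P5424, and 2016 and 1177 in unstimulated and stimulated ΔIkE120, which was 0.478% to 1.05% of the stretch. A match describes the letters and not binding. The 3 matches are shown in capitals with 9 bases on each side, on the plus strand, at chr11:11361685-11361714, chr11:11362057-11362086 and chr11:11362250-11362279.
Match 1: catccagaaCCAACAGAGGGCgctgcacta
Match 2: cgagcctcaCCTGCAGGGGGCgcccgcagc
Match 3: cacccgccgCCGGAAGTTGGCagacggcag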

How the data were processed

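The 4C libraries were cut with DpnII and Csp6I, and the deposited counts are raw reads per DpnII fragment of chromosome 11, mapped by the authors to mm9 with Bowtie 1.0.0. Listed positions matched DpnII fragment midpoints of the mm9 reference at all 295444 fragments kept, and 2 fragments absent from some files were left out. For H3K27ac the authors deposited MACS2 2.1.1 broad peaks in GRCm38, with a score, a ratio (fold enrichment) and -log10 p and q values. No coordinates were converted between builds. Shares, Clopper-Pearson intervals, 20-kb intervals aligned on the inner edge and 2-fold counts were computed in Python 3.11.15 with numpy 2.4.6, pandas 2.3.3 and scipy 1.17.1. The log2 ratio of shares was tested on simulated Poisson reads, with the stretch left out of the total. Quantile normalization was tested on a small example. The Clopper-Pearson intervals and the 2-fold counts were not tested in this way. Ranges beside log2 ratios came from the exact interval of the reads of 1 library among those of the pair. A 20-kb interval at 0 reads was set to 3. The place of the IkE120 site was taken from the study's list of hypersensitive sites. The items named were the annotated genes of the stretch, the 6 fragments with the highest mean share, the top fragment of each library, the fragment with the *Zpbp* start and the intervals past 2-fold. The reference was not repeat-masked, so repeats were left out. The members and lists were chosen with earlier results of these data known.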

Additional observations from a re-analysis of the deposited data

Results flagged for a closer look

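Some effects had opposite signs in the 2 genotypes or the 2 stimulation states. Each rests on 1 library per condition, and the difference between the effects was not tested. The log2 ratio of ΔIkE120 over wt for the whole stretch was -0.035 unstimulated and 0.36 stimulated. By fragments read both were negative, -0.087 and -0.036, and the contrast of signs was lost, while the other alternatives kept it. For *Zpbp* alone it was -0.36 unstimulated and 0.38 stimulated, and by fragments read -0.12 and 0.094, with opposite signs under every alternative tried. The log2 ratio of stimulated over unstimulated cells for *Zpbp* was -0.64 in wt and 0.096 in ΔIkE120. By fragments read it was -0.29 and -0.074, and the contrast of signs was lost, while the other alternatives kept it. The percent of reads on the bait side of the *Zpbp* start changed with stimulation by 6.36 percentage points in wt and by -4.50 in ΔIkE120. Without the fragment with the most reads of each library the changes were -1.62 and -4.37, and the contrast of signs was lost. It was kept by fragments read, at 7.51 and -0.094, and with capped counts, at 4.22 and -4.93. Between ΔIkE120 and wt it differed by 10.01 percentage points unstimulated and by -0.846 stimulated. Without those fragments the differences were 2.29 and -0.455, by fragments read 1.63 and -5.98, and with capped counts 7.06 and -2.08, with opposite signs in each.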

How the results depend on the processing

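Shares carried so many reads that counting error was narrow, and most alternatives moved them past it without changing sign. Of the log2 ratios over the stretch under an alternative, 3 changed sign, for ΔIkE120 over wt stimulated by fragments read and for stimulation in ΔIkE120 with reads within 1 Mb as total and without the top fragment. So did the log2 ratio of stimulation in ΔIkE120 within *Zpbp* by fragments read (-0.074) and the change in percent on the bait side with stimulation in wt without the top fragment (-1.62 percentage points). The cause was not tested. With all chromosome 11 reads as total, the log2 ratios of share that moved past counting error were -0.16 (DN3 over ES), -0.056 (ΔIkE120 over wt unstimulated), 0.24 (ΔIkE120 over wt stimulated), -0.43 (stimulation in wt) and -0.14 (stimulation in ΔIkE120). With reads within 1 Mb as total, the log2 ratios of share that moved past counting error were -0.18 (DN3 over ES), 0.22 (P5424 over DN3), -0.10 (ΔIkE120 over wt unstimulated), 0.18 (ΔIkE120 over wt stimulated), -0.21 (stimulation in wt) and 0.075 (stimulation in ΔIkE120). After quantile normalization across the 6 libraries, the log2 ratios of share that moved past counting error were -0.18 (DN3 over ES), 0.17 (P5424 over DN3), -0.43 (stimulation in wt) and -0.024 (stimulation in ΔIkE120). With counts capped at the 99th percentile, the log2 ratios of share that moved past counting error were 0.15 (P5424 over DN3), -0.046 (ΔIkE120 over wt unstimulated), 0.29 (ΔIkE120 over wt stimulated) and -0.40 (stimulation in wt). With fragments read in place of reads, the log2 ratios of share that moved past counting error were -0.13 (DN3 over ES), 0.28 (P5424 over DN3), -0.087 (ΔIkE120 over wt unstimulated), -0.036 (ΔIkE120 over wt stimulated), -0.13 (stimulation in wt) and -0.076 (stimulation in ΔIkE120). Without the top fragment of either library, the log2 ratios of share that moved past counting error were -0.13 (DN3 over ES), 0.094 (P5424 over DN3), -0.062 (ΔIkE120 over wt unstimulated), 0.37 (ΔIkE120 over wt stimulated), -0.41 (stimulation in wt) and 0.016 (stimulation in ΔIkE120).

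The percent on the bait side of the *Zpbp* start with capped counts was 64.4 (DN3), 51.3 (wt unstimulated), 55.6 (wt stimulated), 58.4 (ΔIkE120 unstimulated) and 53.5 (ΔIkE120 stimulated). The percent on the bait side of the *Zpbp* start by fragments read was 32.6 (DN3), 22.3 (ES), 29.05 (wt unstimulated), 36.6 (wt stimulated), 30.7 (ΔIkE120 unstimulated) and 30.6 (ΔIkE120 stimulated). The percent on the bait side of the *Zpbp* start without the top fragment was 63.6 (DN3), 39.97 (ES), 55.2 (wt unstimulated), 53.6 (wt stimulated), 57.5 (ΔIkE120 unstimulated) and 53.2 (ΔIkE120 stimulated). Without the top fragments of each 20-kb interval, the counts of intervals past 2-fold that moved by over 1.5 times were 4 (P5424 over DN3), 3 (ΔIkE120 over wt unstimulated), 2 (stimulation in wt) and 1 (stimulation in ΔIkE120). Without a filter on low reads the counts were those given. After quantile normalization their sums were within 1.5 times of those given, but single calls ended or began. There were 0 higher and 6 lower (DN3 over ES), 6 and 0 (P5424 over DN3), 0 and 4 (ΔIkE120 over wt unstimulated), 2 and 0 (ΔIkE120 over wt stimulated), 0 and 4 (stimulation in wt) and 2 and 0 (stimulation in ΔIkE120). For ΔIkE120 over wt unstimulated, chr11:11220000-11239999 became lower by 2-fold, from -0.49 to -1.03. For stimulation in wt, chr11:11320000-11339999 did, from -0.97 to -1.01. Bases of 4930415F15Rik under the H3K27ac peaks whose -log10 q reached the list median were 791 in wt and 563 in ΔIkE120, and those of *Zpbp* were unchanged.

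The alternatives for the ratio across the *Zpbp* start, for *Zpbp* alone and for differences in percent on the bait side, and those that leave out top fragments of each interval, were chosen after seeing the data. The ratio across the *Zpbp* start with 10-kb flanks was 0.976 (DN3), 0.995 (ES), 1.32 (wt unstimulated), 0.61 (wt stimulated), 1.05 (ΔIkE120 unstimulated) and 0.855 (ΔIkE120 stimulated). The ratio across the *Zpbp* start with 40-kb flanks was 4.00 (DN3), 2.91 (ES), 3.2 (wt unstimulated), 3.98 (wt stimulated), 4.02 (ΔIkE120 unstimulated) and 3.73 (ΔIkE120 stimulated). The ratio across the *Zpbp* start with 20-kb flanks less the top fragment of each was 2.16 (DN3), 1.77 (ES), 5.03 (wt unstimulated), 1.84 (wt stimulated), 3.08 (ΔIkE120 unstimulated) and 2.03 (ΔIkE120 stimulated). With 10-kb flanks 4 of the 6 ratios fell under 1. No paired analysis was made, since each condition has 1 library. Pairing the 4 P5424 libraries by genotype or by stimulation would leave only the difference between the effects as error. A count of 0, taken to allow 3 reads, allows up to 0.000197% of reads in DN3.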
